A study of Homo sapiens with 4 samples.

Results

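The sirtuins are a family of 7 human genes, SIRT1 to SIRT7, whose enzymes remove acetyl and other acyl groups from lysines. Their RNA was measured in SUM149 cells, an inflammatory breast cancer cell line that lacks hormone receptors and HER2 amplification, before and after Ricolinostat. The members were chosen by symbol: every probe that the authors' annotation assigned to SIRT1 to SIRT7, which gave 13 probes for 7 of the 34755 gene symbols on the array. SIRT1, SIRT4 and SIRT6 had 1 probe each, SIRT2, SIRT3 and SIRT7 had 2 each, and SIRT5 had 4. The cells were untreated, or were given 2.5 uM Ricolinostat (ACY1215) for 3, 6 or 12 hours from the day after seeding. Each of these 4 groups was 1 sample on 1 two-colour Agilent array with the sample in Cy5 and a common reference in Cy3. There was no replicate of any group, so no test between conditions was possible, and time in culture and treatment cannot be told apart because no vehicle-treated array at 3, 6 or 12 hours was analysed here.

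Sirtuins differ from the zinc-dependent histone deacetylases, the class to which HDAC6 belongs, in using NAD as a co-substrate, so that their activity is tied to the supply of that metabolite. SIRT1, SIRT6 and SIRT7 act mainly in the nucleus, on histones and on transcription and repair factors. SIRT2 acts mainly in the cytosol, where it deacetylates alpha-tubulin, a substrate it shares with HDAC6. SIRT3, SIRT4 and SIRT5 act in mitochondria, with SIRT3 as the main deacetylase there and SIRT5 removing succinyl, malonyl and glutaryl groups. Ricolinostat is an inhibitor with selectivity for HDAC6, and the hydroxamate it carries binds the zinc of that class.

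Promoter sequences of the genes in RefSeq's annotation of GRCh38.p14 are shown for SIRT1 and SIRT4, which had the largest sums of squared changes over the 3 treated arrays in the processing used here (SIRT5 passed SIRT1 with median centring and both genes in Cy5 alone), and for SIRT5, the gene that was below its untreated level at every time. Each run holds 250 bases before and 50 bases after an annotated start of the gene, 5′ to 3′ on the gene's strand. The capitals mark matches to a set of short motifs. For SIRT1 at chr10:67884406-67884705, plus strand, they are 2 E-boxes (CACGTG) and 4 GC boxes (GGGCGG, or CCGCCC when the box lies on the other strand).
SIRT1: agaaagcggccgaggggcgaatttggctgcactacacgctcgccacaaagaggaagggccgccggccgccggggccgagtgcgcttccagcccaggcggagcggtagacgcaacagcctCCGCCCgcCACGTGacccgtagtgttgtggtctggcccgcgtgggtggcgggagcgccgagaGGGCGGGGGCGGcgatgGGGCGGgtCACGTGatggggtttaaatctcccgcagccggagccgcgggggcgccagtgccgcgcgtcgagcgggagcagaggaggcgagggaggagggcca
For SIRT4, the upstream of 2 annotated starts at chr12:120291939-120292238, plus strand, holds 1 cyclic AMP response element (TGACGTCA). The window of the downstream start, not shown, lacks that element. Which start serves the transcript read by the SIRT4 probe was not tested.
SIRT4: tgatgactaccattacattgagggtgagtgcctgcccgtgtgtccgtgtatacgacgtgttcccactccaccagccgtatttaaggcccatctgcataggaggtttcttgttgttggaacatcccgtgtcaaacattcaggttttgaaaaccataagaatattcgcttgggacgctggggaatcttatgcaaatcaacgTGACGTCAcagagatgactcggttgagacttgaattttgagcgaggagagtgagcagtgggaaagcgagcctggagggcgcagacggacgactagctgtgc
For SIRT5, the upstream of 2 overlapping windows at chr6:13574279-13574578, plus strand, holds 1 GC box on the other strand and 1 core of the NRF1 motif (CGCATGCG).
SIRT5: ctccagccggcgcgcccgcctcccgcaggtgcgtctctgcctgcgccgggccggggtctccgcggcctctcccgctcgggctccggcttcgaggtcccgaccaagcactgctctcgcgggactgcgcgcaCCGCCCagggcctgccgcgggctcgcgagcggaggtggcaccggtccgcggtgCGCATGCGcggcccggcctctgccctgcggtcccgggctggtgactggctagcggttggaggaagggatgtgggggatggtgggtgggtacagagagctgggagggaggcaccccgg

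The 3 sequences differ in composition: the SIRT1 window has 72.7% G and C with 39 CpG dinucleotides, the SIRT5 window 76.3% with 37, and the SIRT4 window 50.3% with 16. The downstream SIRT4 window has 42.3% with 9. The medians over all 35093 promoter windows of 27305 genes were 58.7% and 14. On both strands, the E-box was held by 7.26% of all windows, the GC box by 44.9%, the cyclic AMP response element by 1.85%, and the NRF1 core by 2.02%. The NRF1 core also stood in a SIRT6 window. The other motifs, also searched on both strands, were CCAAT, held by 34.6% of windows, and TATAAA, held by 11.5%. The forkhead motif GTAAACA was held by 3.42% of windows and by no sirtuin window. CCAAT stood in a SIRT2 and a SIRT6 window, and TATAAA in the downstream SIRT4 window. Of the 7 genes, 6 had 9 windows between them, and SIRT7 was not in the table. A match is a run of letters and says nothing of which factor binds there.

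The arrays carried 62976 spots each, with a median Cy5 signal of 36 to 40 scanner units over a local background of 24. Areas of an array were taken as damaged where at least 10% of the spots nearby were outliers or had a Cy3 level over 2-fold away from that spot's median across arrays. They held 3.23% of spots on the untreated array, 4.67% at 3 hours, and 0.248% and 0% on the 6-hour and 12-hour arrays. A single sirtuin probe lay in such an area, a dim SIRT3 probe on the 3-hour array. The 13 sirtuin probes were well above background in both channels on all 4 arrays, and none was saturated or set aside as an outlier. All 7 markers of basal breast epithelium were well above background in Cy5 on all 4 arrays, and the progesterone receptor gene PGR was on none. The oestrogen receptor gene ESR1 passed on all 4 with 172 to 262 units. So did the 3 markers of blood, endothelial and fibroblast cells. The leukocyte gene PTPRC read 172 to 224 units, the endothelial gene PECAM1 34 to 41.5, and the fibroblast gene COL1A2 102 to 145. The part of these genes in the results was not tested.

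The values below are log2 ratios of Cy5 over Cy3, and a change is the log2 ratio on a treated array minus that on the untreated array. The labels describe the reference as a pool of the SUM149 samples. The data went against that label: 2299 of 19881 genes (11.6%) differed by at least 2-fold in the same direction between sample and reference on all 4 arrays, and the albumin gene ALB read 154 to 232 units in the samples and 21137 to 22178 in the reference. A constant reference drops out of a change from untreated, so changes and not ratios are compared here, and changes of the normalized Cy5 level alone are given beside those of the sirtuins. The error available was technical. Over 287 probes spotted repeatedly on every array, the median SD of the change was 0.11, 0.11 and 0.10 after 3, 6 and 12 hours. A gap above double that SD (0.21, 0.23 and 0.21) is called beyond the spotting error. Between treated arrays the limit was 0.19 for 3 and 6 hours, 0.18 for 3 and 12, and 0.14 for 6 and 12. Near dim sirtuin probes the SD was up to 0.20. The spotting error does not include the difference between cultures. Because all 3 changes share the untreated array, an error on that array enters each of them.

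Among the sirtuins, SIRT1, SIRT2, SIRT3, SIRT4 and SIRT7 were above their untreated level on every treated array, and SIRT5 was below it on each. SIRT6 was below untreated at 3 and 6 hours and above it at 12 hours. SIRT2, SIRT3 and SIRT6 stayed within 1.5-fold of their untreated level. SIRT4 was the member with the largest rise, 2.02-fold at 6 hours, and the one gene of the 7 to pass 2-fold, where 3.75% of 20335 genes did. At 3 hours 0 of 7 passed 2-fold, against 2.09% of 20764 genes, and at 12 hours 0 of 7, against 3.46% of 20476. At the lower limit of 1.5-fold the counts were 0 of 7 at 3 hours (8.87% of all genes), 3 of 7 at 6 hours (13.8%) and 3 of 7 at 12 hours (13.2%). The 3 genes at 6 hours were SIRT1, SIRT4 and SIRT7, all upward. The 3 at 12 hours were SIRT4 and SIRT7 upward and SIRT5 downward. Changes beyond the spotting error were common on these arrays, in 38.1%, 43.6% and 45.5% of all genes at 3, 6 and 12 hours, and in 5, 6 and 5 of the 7 sirtuins. The median change of the sirtuins was 0.27, 0.35 and 0.39 at the 3 times, where that of all genes was 0.0075, 0.016 and 0.014. With 7 genes the median is the value of 1 gene, which at all 3 times was SIRT2, read from a dim probe. With the mean of all probes of a gene the sirtuin median was 0.15, 0.22 and 0.36.

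**Figure D1:**
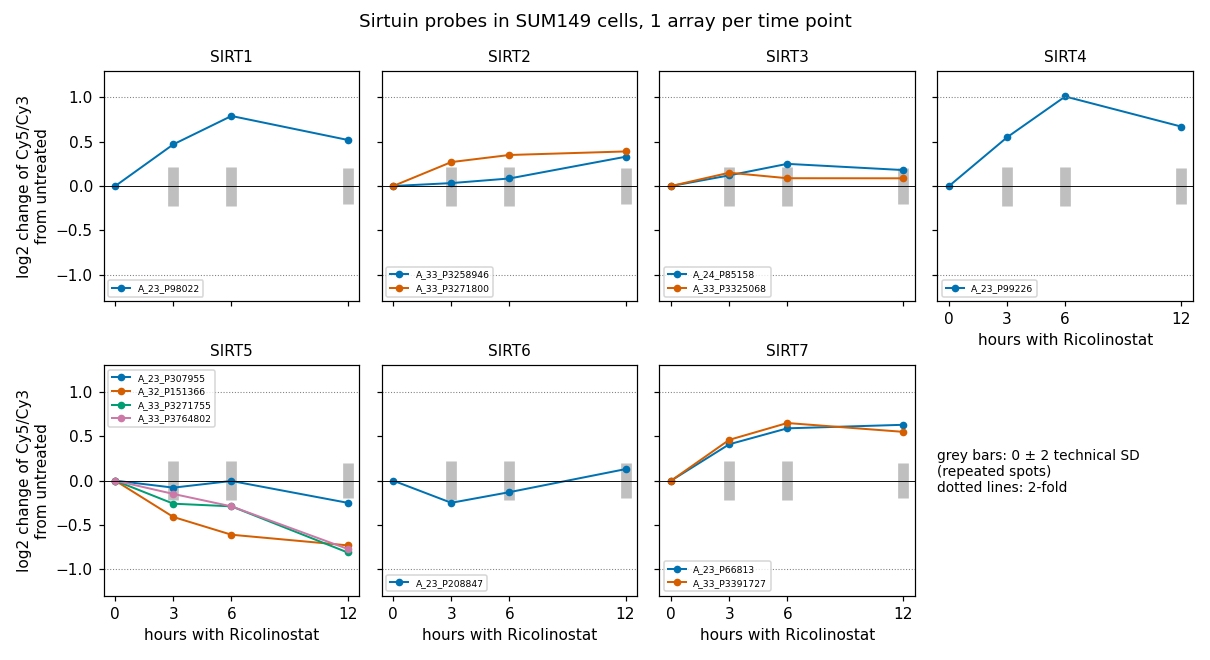
Change of the log2 Cy5/Cy3 ratio from the untreated array (vertical axis) against hours with Ricolinostat (horizontal axis) for the 13 sirtuin probes, 1 panel per gene and 1 line per probe. Grey bars span 0 ± 2 technical SD from repeated spots and dotted lines mark 2-fold. In this ratio SIRT1 and SIRT4 peak at 6 hours, though in Cy5 alone SIRT1 changed by 0.49 at 3 hours and 0.52 at 6 hours. Both SIRT7 lines lie above the grey bars, and 3 of the 4 SIRT5 lines end between -0.73 and -0.81 at 12 hours.

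Of the nuclear sirtuins, SIRT1, the deacetylase of p53, FOXO factors and histones, was read by probe A_23_P98022. Its log2 ratio was -0.67 in untreated cells and -0.21, 0.12 and -0.15 after 3, 6 and 12 hours. The untreated array was the low one and the 6-hour array the high one, and each stood apart from its neighbour by more than the spotting error, while the 3-hour and 12-hour arrays differed by 0.056, within it. The changes were 0.47, 0.79 and 0.52, which is 1.38-fold, 1.73-fold and 1.44-fold. In the scanner signal, Cy5 read 171, 280, 244 and 190 units on the 4 arrays in order of time and Cy3 read 257, 254, 219 and 230. The Cy5 channel alone put the changes at 0.49, 0.52 and 0.27, so part of the 6-hour and 12-hour values came from a lower Cy3 reading on those arrays. In that channel the 3-hour and 6-hour arrays were within its spotting error of 0.21. With median centring the changes were 0.61, 0.67 and 0.32, so there too the 6-hour array lay close to the 3-hour array. The remaining alternatives kept the 6-hour array higher, at the least by 0.76 against 0.49 in Agilent's processed signals. Among all genes, 5.26% rose at least as far at 6 hours.

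SIRT6, a nuclear deacetylase of histone H3 that acts at telomeres and in DNA repair, was the nuclear member that did not keep 1 direction. Its log2 ratio was 0.23 in untreated cells and -0.012, 0.10 and 0.37 after 3, 6 and 12 hours. The 3-hour array was the lowest and the 12-hour array the highest, and no 2 neighbours in that order differed beyond the spotting error. The changes were -0.25, -0.13 and 0.13, the first beyond the spotting error, and in Cy5 alone they were -0.69, -0.27 and -0.054. The 12-hour value was also below 0, at -0.12, when each array was centred on its median. Its Cy5 signal read 450, 282, 338 and 378 units and its Cy3 signal 312, 220, 296 and 298, so that both channels were lowest at 3 hours.

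SIRT7, a nucleolar enzyme linked to ribosomal RNA transcription, was read by 2 probes annotated to the same transcript. Probe A_23_P66813 gave log2 ratios of 1.52, 1.92, 2.11 and 2.15 from untreated to 12 hours. Probe A_33_P3391727 gave 1.25, 1.71, 1.89 and 1.79. On both probes the untreated array was lower than each treated array by more than the spotting error, and neighbouring treated arrays in the order of levels were within it. The changes were 0.41, 0.59 and 0.63 on the first probe and 0.46, 0.65 and 0.55 on the second. In Cy5 alone they were 0.31, 0.50 and 0.38, and 0.48, 0.54 and 0.41. Both probes being higher at all 3 times was also seen in 23.1% of 3917 genes with 2 measured probes.

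SIRT2, the cytosolic tubulin deacetylase, was read by 2 dim probes. Probe A_33_P3271800, annotated to transcript NM_012237, gave log2 ratios of -0.21, 0.065, 0.14 and 0.19, and A_33_P3258946, annotated to NM_001193286, gave -0.10, -0.071, -0.02 and 0.23. The untreated array was the lowest and the 12-hour array the highest on both. In the ratio they differed in when the step came. The first probe was 0.27 higher at 3 hours and 0.39 at 12 hours. The second was 0.033 higher at 3 hours, 0.085 at 6 hours and 0.33 at 12 hours. Among repeated probes of like brightness the SD at 12 hours was 0.19 near the first (7 probes) and 0.20 near the second (10 probes). The 12-hour changes thus lay near or under double that SD. At 3 hours the SD near the first was 0.17, so its change of 0.27 also lay under double that SD. In Cy5 alone the changes were -0.057, 0.17 and 0.43, and 0.094, 0.20 and 0.43. In that channel both probes were highest at 12 hours, and the first showed no rise at 3 hours. Its Cy3 signal read 98 units in untreated cells and 73 at 3 hours. The 3-hour direction depended on the processing, with -0.057 for the first probe in Cy5 alone and -0.10 for the second in the values of Agilent's software. Cy5 signals ran from 87 to 119 units on the first probe and from 61 to 83 on the second.

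Of the mitochondrial sirtuins, SIRT3 was near its untreated level. Its brighter probe A_24_P85158 gave log2 ratios of -0.46, -0.34, -0.21 and -0.28, with changes of 0.12, 0.25 and 0.18, and its dim probe A_33_P3325068 gave 0.077, 0.22, 0.17 and 0.16, with changes of 0.15, 0.088 and 0.087. No neighbouring arrays in the order of levels differed beyond the spotting error on either probe. Against the untreated array, the 6-hour change of the brighter probe, 0.25, was beyond that error (0.23). At 12 hours median centring turned both values, to -0.08 and -0.01, and at 3 hours, where the dim probe lay in a damaged area, Cy5 alone gave -0.28 for it. In Cy5 alone the brighter probe changed by 0.18, 0.33 and 0.20.

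SIRT4, a mitochondrial enzyme with ADP-ribosyltransferase and lipoamidase activities that restrains glutamate dehydrogenase and pyruvate dehydrogenase, was read by probe A_23_P99226. Its log2 ratio was -1.01 in untreated cells and -0.47, 0.0019 and -0.34 after 3, 6 and 12 hours. The order of the arrays was that of SIRT1, with untreated lowest, 6 hours highest, and 3 and 12 hours between them and within the spotting error of each other. The changes were 0.55, 1.01 and 0.67, or 1.46-fold, 2.02-fold and 1.59-fold. The Cy5 signal was 30, 58, 80 and 50.5 units over local backgrounds of 25, 26, 24.5 and 25, so the untreated level stood 5 units above its surroundings, and Cy3 was steady at 83 to 93 units. The size of the rise therefore depended on how background was handled. In Cy5 alone the changes were 0.46, 0.88 and 0.47. At 6 hours the rise was 1.62 without background subtraction, 2.48 with a smaller offset in the background correction, 2.10 in the authors' table and 3.16 in the values of Agilent's software. The direction was upward at each time in all of these.

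SIRT5, the mitochondrial desuccinylase, was the one member that fell past 1.5-fold. Probe A_33_P3764802, the brightest in Cy3 and annotated to NM_012241, gave log2 ratios of 0.87, 0.72, 0.59 and 0.10, so the 12-hour array was lower than the other 3 by more than the spotting error. A_32_P151366, annotated to the same transcript, gave 0.062, -0.35, -0.54 and -0.67, with the drop already beyond that error at 3 hours. A_33_P3271755, annotated to the variant NM_031244, gave 0.72, 0.46, 0.43 and -0.10. The 12-hour array was the lowest on these 3 probes, with changes of -0.77, -0.73 and -0.81, or 1.71-fold, 1.66-fold and 1.76-fold lower. The fourth probe A_23_P307955, also annotated to NM_031244, read 50 units in untreated cells and 32 at 12 hours, near background, and gave changes of -0.079, -0.0037 and -0.25.

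Both transcript annotations of SIRT5 thus carried a probe that fell past 1.5-fold at 12 hours. In scanner units, the Cy5 signal of A_33_P3764802 was 1440, 1357, 948 and 550, and its Cy3 signal was 570, 546, 542 and 512. Part of that fall was shared by the array: the scanner signal of this probe was -1.39 on the log2 scale at 12 hours relative to untreated, where the median of 1798 genes of like untreated brightness was -0.34. After normalization, Cy5 alone put the 12-hour changes of the 3 brighter probes at -1.06, -1.04 and -0.85, the first 2 of them past 2-fold, and that of the dim probe at -0.30. Cy3 was also lower at 12 hours, by -0.29 and -0.31 on the first 2, which is why their ratios changed by less. The sign was below untreated for all 4 probes at all 3 times, and it stayed so under each of 6 other ways of processing. Of 178 genes with 4 measured probes, 15 (8.43%) had all 4 below untreated at all 3 times, and 43 (24.2%) had all 4 below at 12 hours. Among all genes, 2.52% fell at least as far at 12 hours as the SIRT5 probe that represents the gene.

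**Figure D2:**
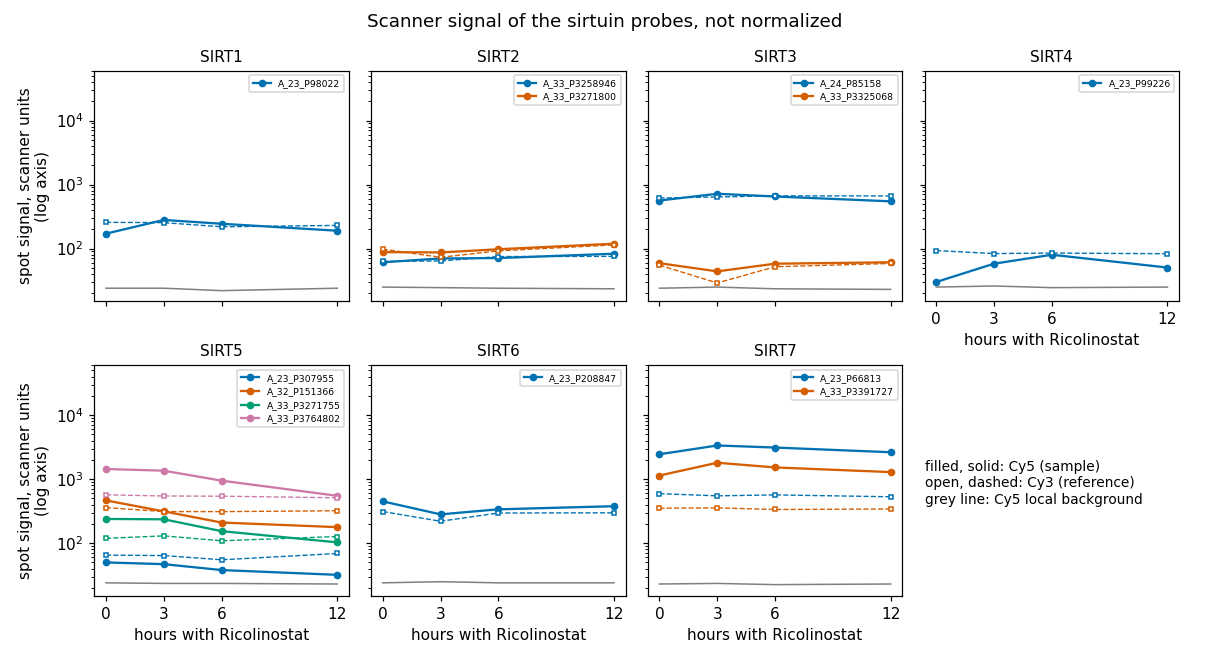
Scanner signal of each sirtuin probe (vertical axis, scanner units, log scale) against hours with Ricolinostat (horizontal axis), 1 panel per gene. Filled points and solid lines are Cy5, the sample, open points and dashed lines are Cy3, the reference, and the grey line is the local Cy5 background. The Cy5 lines of SIRT5 descend, its Cy3 lines descend less or rise, and the untreated SIRT4 point, at 30 units, lies close to the background line at 25.

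The way the arrays were processed changed sizes more than signs among these probes. SIRT1, SIRT4, SIRT5 and SIRT7 kept their sign at every time under each of the 6 alternatives to the background correction, the normalization and the choice of channel, in 18, 18, 72 and 36 values. SIRT2 kept it in 34 of 36, SIRT3 in 33 of 36 and SIRT6 in 16 of 18. With median centring the 12-hour change of the median gene was -0.16, and the changes of all 13 sirtuin probes at 12 hours were lower under that setting.

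**Figure D3:**
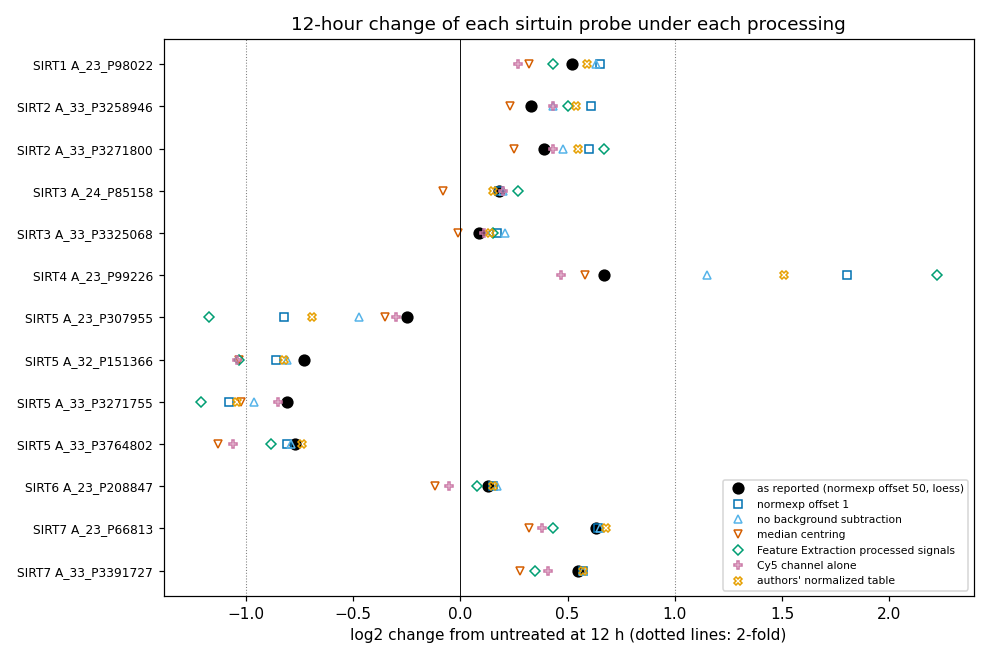
Change of the log2 value from untreated at 12 hours (horizontal axis) for each of the 13 sirtuin probes (vertical axis), with 1 symbol for each way of processing. Filled circles are the values reported in the text and dotted lines mark 2-fold. SIRT4 spreads from 0.47 to 2.22 on the right of 0, the SIRT5 symbols all lie left of 0, and those of SIRT3 and SIRT6 lie on both sides.

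The genes whose changes over the 3 treated arrays lay nearest to those of SIRT4 and SIRT1 were listed by Euclidean distance in log2 units, over 19881 genes and 3 time points. Nearest to SIRT4 were SLC25A40, a mitochondrial carrier gene, at a distance of 0.045, BCL2, the apoptosis inhibitor, at 0.068, and DNAJB1, an HSP40 chaperone, at 0.08. BCL2 changed by 0.56, 1.04 and 0.61, and DNAJB1 by 0.55, 1.08 and 0.71. Nearest to SIRT1 were LBH at 0.033, DLC1 at 0.034 and HS2ST1 at 0.034. As many as 73 genes lay within a distance of 0.21 of SIRT4 over the 3 changes together, and 290 of SIRT1. That limit is double the technical SD of the 12-hour change, so these neighbours are a sample of many. The distances hold for the background offset of 50 used here, and the changes of SIRT4 itself moved with that choice by far more than the distances.

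Of the genes for tubulin acetylation, the pathway that SIRT2 and HDAC6 share, 6 of 6 were measured, 2 above and 4 below untreated at 12 hours (52.4% of all genes were above), with medians of -0.15, -0.25 and -0.14 over time. With median centring, which put the median of all genes at -0.084 and -0.16 at 6 and 12 hours, the medians of the list there were -0.52 and -0.62. HDAC6, the target of Ricolinostat, changed by -0.41, -0.25 and -0.51 on its brighter probe and by -0.25, -0.0049 and -0.20 on the other. The brighter probe changed by -0.31, -0.49 and -0.67 in Cy5 alone, and by -0.30, -0.45 and -0.81 with median centring. ATAT1, the tubulin acetyltransferase, changed by 1.36, 0.88 and 0.72 on a probe in a damaged area of the 3-hour array, and by 0.029, 0.11 and 0.11 on its other probe, so that the probes disagreed. On the array at 3 hours the first of them read lower in both channels, 317 units against 609 untreated in Cy5 and 169 against 879 in Cy3, and Cy5 alone changed by -0.85, opposite to the ratio. No gene of this list passed 2-fold at 6 or 12 hours, where 3.75% and 3.46% of all genes did. At 3 hours 1 of 6 did, ATAT1 on the probe in the damaged area, against 2.09% of all genes.

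Among the genes listed for NAD synthesis, which also include NNMT, NNT and the NAD kinases NADK and NADK2, 16 of 19 were measured. At 12 hours 6 were above and 10 below untreated, with a median of -0.038 (-0.31 with median centring and -0.18 in Cy5 alone). None passed 2-fold in the processing used here, where 2.09%, 3.75% and 3.46% of all genes did at 3, 6 and 12 hours. NNMT, which methylates nicotinamide and so draws it away from NAD, fell by 0.98 at 6 hours and 0.97 at 12 hours on the log2 scale. At these times NNMT was past 2-fold in Cy5 alone, at -1.12 and -1.13, and with median centring, at -1.27 and -1.46. NMRK1, a nicotinamide riboside kinase, was 0.58 higher at 12 hours, with 0.60 on its other probe. On the first of these probes the change was 0.24 in Cy5 alone and 0.31 with median centring. Its Cy5 signal read 675 units untreated and 677 at 12 hours, and its Cy3 signal 506 and 424. Among other NAD-consuming enzymes, 8 of 9 were measured, with 3 above and 5 below untreated at 12 hours and a median of -0.091 (-0.26 with median centring and -0.12 in Cy5 alone). PARP4 fell by 0.78 at 12 hours on the log2 scale, and its other probe by 0.69, while the tankyrase TNKS2 rose by 0.60, with its 3-hour value of 0.62 from a damaged area.

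Of 7 regulators of SIRT1 all were measured, 4 above and 3 below untreated at 12 hours, with a median of 0.029, which was -0.20 with median centring, -0.14 in Cy5 alone and -0.17 with the mean of all probes of a gene. ELAVL1, which encodes the RNA-binding protein HuR that stabilizes SIRT1 mRNA, was higher by 0.60, 0.56 and 0.62. USP22, a deubiquitinase that stabilizes SIRT1 protein, changed by -0.54, -0.81 and -0.56. These 2 genes were the ends of the list at 12 hours.

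The nuclear and cytosolic substrates of sirtuins had 11 of 13 genes measured, with 7 above and 4 below untreated at 12 hours and a median of 0.14. That median had no settled direction, at -0.17 with median centring, -0.011 in Cy5 alone and 0.34 with no filter on dim probes. ACSS2, the cytosolic acetyl-CoA synthetase that SIRT1 deacetylates, rose by 0.89 at 12 hours, and UBTF, a factor of ribosomal RNA transcription, fell by 0.77 on the log2 scale. The mitochondrial substrates had 12 of 16 measured, with 8 above and 4 below and a median of 0.15, which was -0.14 with median centring and 0.073 in Cy5 alone. Of these, DLAT, a pyruvate dehydrogenase subunit, was higher by 0.53 at 12 hours, and PPIF, which encodes cyclophilin D, fell by 0.84 on the log2 scale. At 12 hours no gene of either list passed 2-fold in the processing used here, where 3.46% of all genes did. UBTF passed it in Cy5 alone, at -1.04, and with median centring, also at -1.04. PPIF passed it with median centring, at -1.27.

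In the classical histone deacetylases other than HDAC6, the zinc-dependent relatives by activity, 9 of 10 genes were measured, and HDAC4 had no value because its spot was an outlier on the untreated array. Of these, 7 were above and 2 below untreated at 12 hours. Their medians were 0.084, 0.14 and 0.081 at the 3 times, where those of the sirtuins, set by SIRT2, were 0.27, 0.35 and 0.39. With median centring the 12-hour medians were -0.063 for this list and 0.25 for the sirtuins, and in Agilent's processed signals they were 0.30 and 0.43. The ends of that list were HDAC3 at 0.62 and HDAC7 at -0.87 at 12 hours. HDAC3 lay in a damaged area at 3 hours, where its ratio changed by 0.82 and its Cy5 alone by -0.072, and the other probe of HDAC7 gave -0.11.

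**Figure D4:**
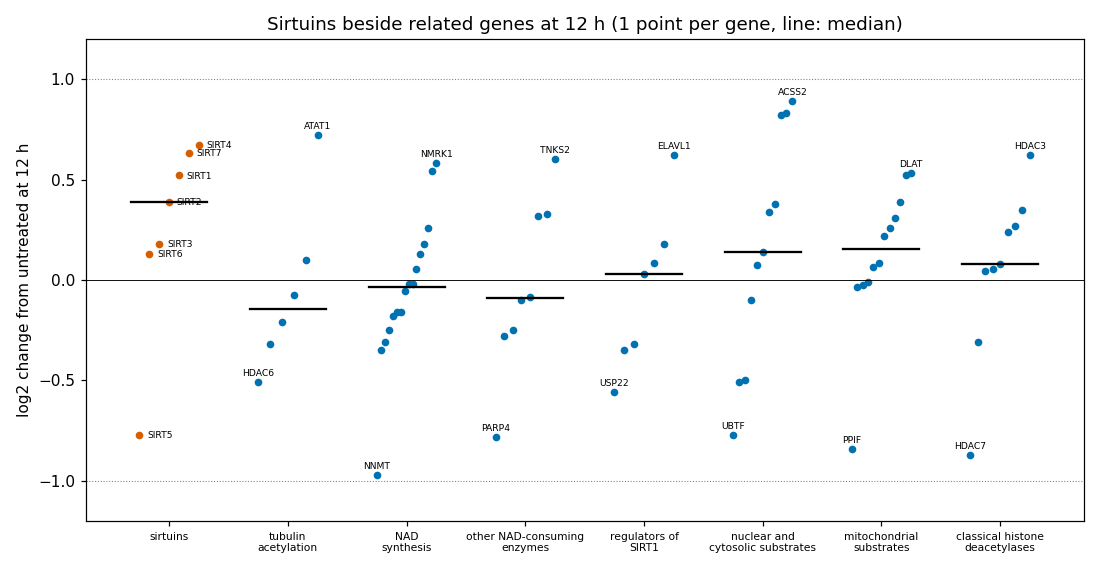
Change of the log2 ratio from untreated at 12 hours (vertical axis) for the 7 sirtuins (orange) and for 7 lists of related genes (blue), 1 point per gene, with a black line at each median. Dotted lines mark 2-fold. The sirtuin median, 0.39, is the SIRT2 value, and SIRT5 alone lies below 0. The medians of the related lists lie between -0.14 and 0.15. With median centring those medians lie between -0.62 and -0.063, and SIRT3 and SIRT6 are below 0 too.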

How the data were processed

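For each of the 4 arrays the authors deposited spot intensity and local background for Cy5 and Cy3, with flags and a log10 ratio. These came from Agilent Feature Extraction 12.0.1.1. On the log2 scale, that log10 ratio gave the values ascribed here to Agilent's software or its processed signals. A second table the authors deposited gives normalized log2 ratios, whose normalization is not given in the sources used here. The design named the mean pixel signal, and the median pixel signal was used in its place. All spots went through normexp (offset 50). Control spots and outliers were then dropped, and arrays were normalized by loess and Aquantile in limma 3.58.1 (R 4.3.3). Repeat spots were averaged, and each gene was read from its brightest probe in Cy3. A gene counted as measured when Cy5 and Cy3 of that probe were well above background on the treated and the untreated array. Further steps ran in Python 3.11.15 with pandas 2.3.3. The normalization was tested on simulated data.

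The members and lists were chosen with earlier results of these data known. Named genes are the 7 sirtuins, HDAC6, any list gene past 2-fold, the largest rise and fall of each list at 12 hours among genes above background on all arrays, and the 3 genes nearest to SIRT4 and SIRT1. Alternatives changed the offset, background, normalization, channel, filter, probe rule and fold limit.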

Additional observations from a re-analysis of the deposited data

How the results depend on the processing

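The count of sirtuins past 2-fold and their median change moved with several choices. At 3 hours the count went from 0 to 1 with a normexp offset of 1, in Agilent's processed signals and in the authors' normalized table. At 6 hours it went from 1 to 0 with median centring and in Cy5 alone, and to 3 when the limit was 1.5-fold. At 12 hours it went from 0 to 1 with an offset of 1, without background subtraction, with median centring, in Agilent's processed signals, in Cy5 alone and in the authors' table, and to 3 with the limit of 1.5-fold. That 1 gene at 12 hours was SIRT4, upward, with an offset of 1, without background subtraction, in Agilent's processed signals and in the authors' table, and SIRT5, downward, with median centring and in Cy5 alone. The median change at 3 hours went from 0.27 to 0.15 in Agilent's processed signals and 0.15 with the mean of all probes of a gene. At 6 hours it went from 0.35 to 0.53 with an offset of 1, 0.47 in the authors' table and 0.22 with the mean of all probes. At 12 hours it went from 0.39 to 0.60 with an offset of 1, 0.55 in the authors' table, 0.27 in Cy5 alone and 0.25 with median centring, where the median of all genes was -0.16. The 12-hour medians of the related lists were lower with median centring, at -0.62 for tubulin acetylation, -0.31 for NAD synthesis, -0.26 for other NAD-consuming enzymes, -0.20 for regulators of SIRT1, -0.17 and -0.14 for nuclear and mitochondrial substrates and -0.063 for classical histone deacetylases, and the last 4 of these had been above 0. The cause of these shifts was not tested. Of the counts and medians, 41 other values moved by less than the limits set for them. No paired analysis was possible because no group had a second array. Processing from the mean pixel signal was not run, since the scanner columns used here hold the median. With 4 arrays and 1 per time point, no value has a replicate check, and dim probes such as that of SIRT4 in untreated cells carry the least certain sizes.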
